A study of Mus musculus with 5 samples.

Results

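The 9 genes described here belong to the mitogen-activated protein (MAP) kinase cascade: the MAP3K genes Map3k1 and Map3k5, the MAP2K genes Map2k1 and Map2k2, the MAP kinase genes Mapk3, Mapk8 and Mapk14, and the phosphatase genes Dusp4 and Dusp6. They were taken by probe name from a NanoString nCounter panel of cancer immunity genes, on which they are 9 of 750 endogenous probes. RNA came from sorted CD45- cells, which are tumor cells and any stroma without the leukocyte marker CD45, of tumors no larger than 1.5 cm3. The tumors were of B16-OVA, a murine melanoma cell line modified to make ovalbumin, implanted under the skin of Prdm1fl/flFoxP3YFP-Cre mice (KO, 2 samples) or FoxP3YFP-Cre mice (WT, 3 samples), all on the C57BL/6 background. All mice carried the Cre allele, and all received NP-OVA intraperitoneally with complete Freund's adjuvant at day 0 and with incomplete Freund's adjuvant at day 7. The labels give no age. The Cre is driven by Foxp3, so Prdm1, which encodes the transcription factor Blimp1, is deleted in regulatory T (Treg) cells of the host and not in the cells that were measured.

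In a MAP kinase cascade, a MAP3K phosphorylates a MAP2K, which in turn phosphorylates a MAP kinase on a threonine and a tyrosine. The main branches end in ERK, JNK and p38 kinases, which respond to growth factors, stress and cytokines. Dual-specificity phosphatases remove both phosphates, and the Dusp4 and Dusp6 transcripts are known to be induced by ERK signaling, whose output they restrain. In melanoma the ERK branch is the best known driver of growth. The panel counted transcripts and did not measure kinase activity.

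Endogenous probes summed to between 450207 and 461822 counts in KO and between 369515 and 423472 counts in WT, and the 401 of 750 that exceeded background in 2 samples or more were tested. Counts were scaled by the geometric mean of 20 housekeeping probes and are given as normalized counts. Background, the mean of a sample's negative controls plus 2 SD, was 14.8 and 17.7 counts in KO and 13.1 to 14.6 in WT. Ptprc, which encodes CD45, had at most 3 raw counts in KO and 4 in WT. Prdm1 and Foxp3 were likewise below background in every sample. Because the deletion is in Treg cells, which were not measured, counts from CD45- cells could not be used to check the genotype. Of the melanocyte markers listed, only Mcam and S100b were on the panel, and both were above background in all samples. All 9 cascade genes were above background in all 5 samples. Their lowest raw count was 181, where counting error alone is 7.43%, against 1.49% at the lowest count of Dusp6. A probe's count depends on the probe as well as on its transcript, so levels are compared between samples and not between genes. In such sorted material, fewer cells of a type and less RNA per cell cannot be told apart.

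To examine how loss of Blimp1 in Treg cells bears on the cascade in CD45- cells, KO was compared with WT. Map3k1 had the largest difference, 1.50-fold higher in KO, and Dusp6 was 1.26-fold lower in KO. The other 7 genes differed by at most 1.23-fold. None of the 9 was called at an adjusted p of 0.05 by edgeR's quasi-likelihood test, which called 0% of the 401 tested probes. At the same adjusted threshold, DESeq2, limma and the test of the paper's methods called none of the 9 either. DESeq2 called 3 other probes (Mcam and Lcp1 higher, Relb lower). The paper's methods name a p under 0.05 and state no adjustment. Without adjustment, the test of the methods gave 1 of the 9 at that threshold, Map3k1. At an unadjusted p under 0.05, edgeR gave 1 of the 9 higher in KO (Map3k1), beside 2.74% of all tested probes, and 0 of the 9 lower, beside 3.49%. Over all tested probes these were 11 higher and 14 lower, against 17 and 13 with DESeq2 size factors and 24 and 4 with positive control scaling. The median log2 fold change of the 9 genes was −0.11, against −0.07 for all tested probes. It was 0.03 when counts were scaled by the positive controls, a scaling that moved the median of all tested probes to 0.07.

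**Figure D1:**
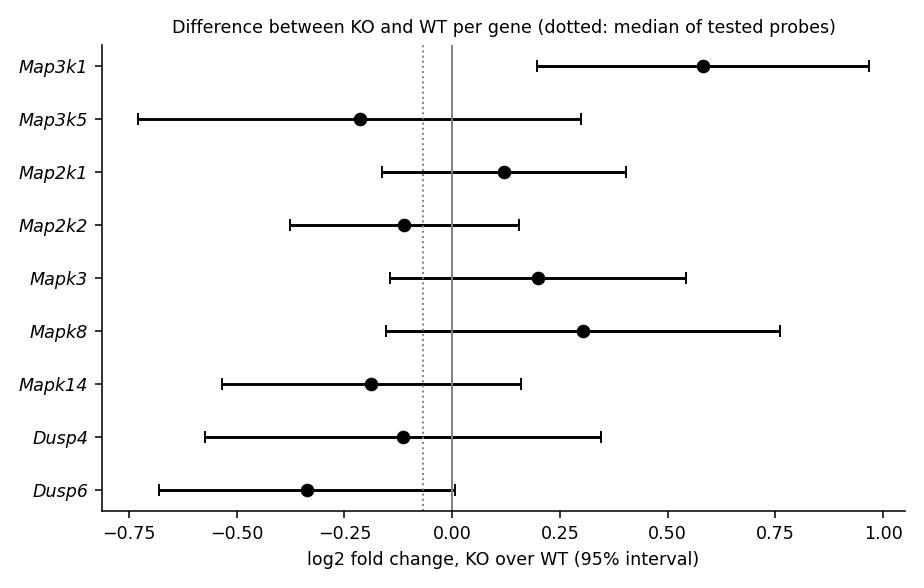
Log2 fold change of KO over WT for each of the 9 genes (points) with its 95% interval (bars) from edgeR, with 0 as a solid line and the median of the 401 tested probes as a dotted line. Only the interval of Map3k1, 0.20 to 0.97, does not reach 0.

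Map3k1 encodes MEKK1, a MAP3K of the JNK and ERK branches that also carries ubiquitin ligase activity. It had 358 and 319 normalized counts in KO 1 and 2, against 236, 240.0 and 202 in WT 1, 2 and 3. Both KO samples lay above all WT samples. The means were 338 ± 27.8 in KO (SD, n = 2) and 226 ± 20.7 in WT (SD, n = 3). Its log2 fold change was 0.58 (SE 0.15, 95% interval 0.20 to 0.97), with an unadjusted edgeR p of 0.0113 and an adjusted p of 0.487. By p it ranked 7 of 401 tested probes. With 1 sample left out the log2 fold change stayed between 0.50 and 0.66, and its unadjusted edgeR p was 0.0744 without KO 1.

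Because the other 8 genes were counted in the same tube, Map3k1 could also be set against them within each sample. In this ratio the housekeeping factor of a sample cancels, and the other 8 genes serve as the reference. Relative to the mean of WT, the log2 ratio of Map3k1 to the mean of the other 8 was 0.70 and 0.54 in KO 1 and 2, against 0.06, 0.11 and −0.17 in WT 1, 2 and 3. The separation of Map3k1 was therefore present without the housekeeping probes, relative to 8 genes that themselves differed between the groups in either direction.

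Map3k5 encodes ASK1, a MAP3K activated by oxidative stress that feeds the JNK and p38 branches. It had 221 and 179 normalized counts in KO 1 and 2, against 268, 229 and 198 in WT 1, 2 and 3, so that the groups overlapped. Its log2 fold change was −0.21 (SE 0.20, 95% interval −0.73 to 0.30), and ranged from −0.38 without KO 1 to −0.07 without KO 2. The fold changes of the pair of MAP3K genes thus had opposite signs, and the difference between them was not tested.

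**Figure D2:**
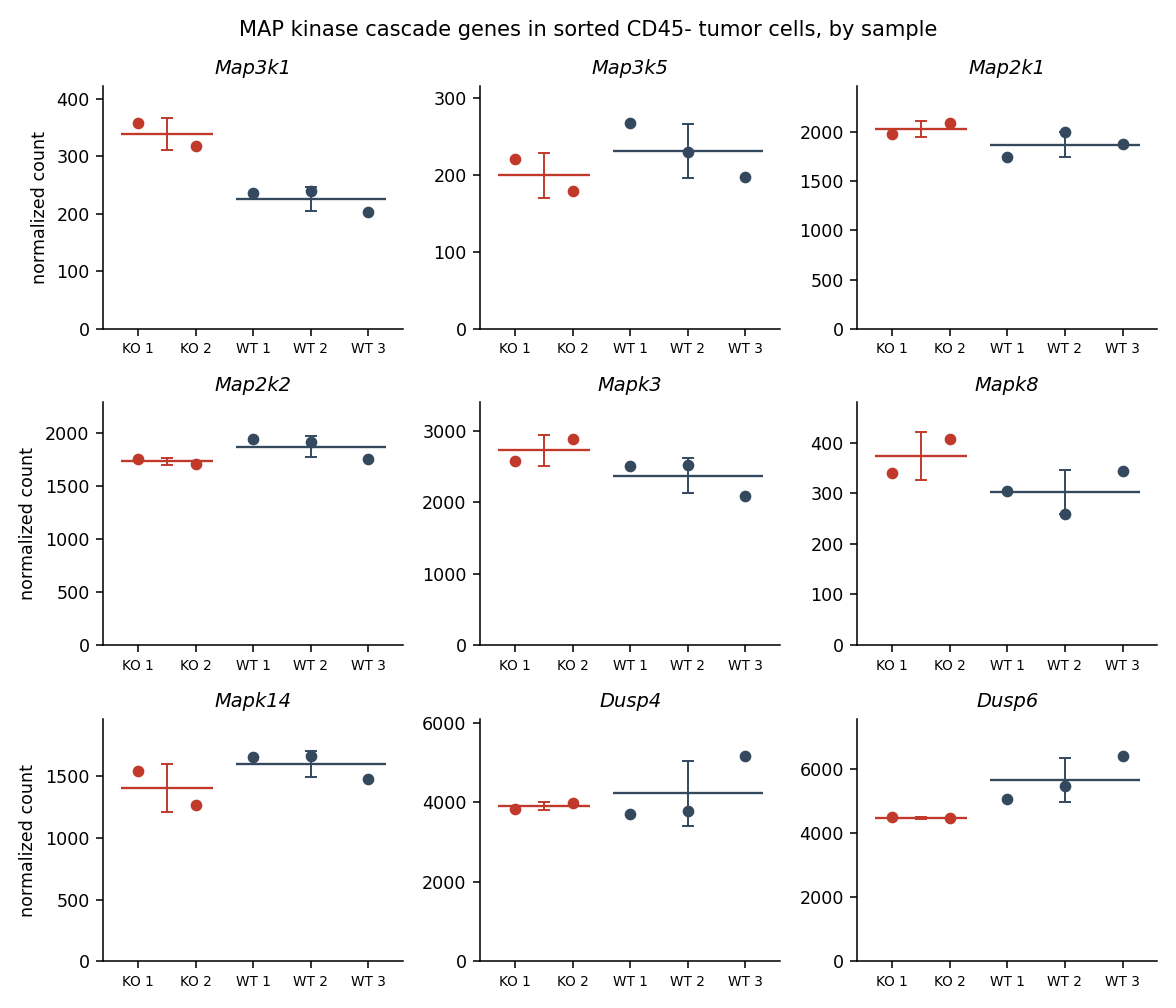
Normalized count (vertical axes, from 0) of each of the 9 genes in every sample, KO in red and WT in dark blue, with the group mean as a line and the SD as a bar (n = 2 KO, n = 3 WT). The KO points of Map3k1 and Mapk3 lie above all WT points and those of Map2k2 and Dusp6 lie below them.

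The MAP2K genes encode MEK1 (Map2k1) and MEK2 (Map2k2), the kinases that activate ERK. Map2k1 had 1978 and 2093 normalized counts in KO 1 and 2, against 1741, 1996 and 1882 in WT 1, 2 and 3. Map2k2 had 1758 and 1712 in KO 1 and 2, against 1944, 1919 and 1760.0 in WT 1, 2 and 3. Map2k1 overlapped between the groups, with WT 2 above KO 1. For Map2k2 both KO samples lay below all WT samples, but KO 1 and WT 3 were nearly equal. Log2 fold changes were 0.12 for Map2k1 (SE 0.11, 95% interval −0.16 to 0.40) and −0.11 for Map2k2 (SE 0.10, 95% interval −0.38 to 0.15). That of Map2k2 was 0.03 with positive control scaling.

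Mapk3 encodes ERK1. It had 2567 and 2877 normalized counts in KO 1 and 2, against 2501, 2523 and 2085 in WT 1, 2 and 3. Both KO samples lay above all WT samples, by little for KO 1. Its log2 fold change was 0.20 (SE 0.13, 95% interval −0.14 to 0.54), and 0.12 without KO 2 or without WT 3.

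Mapk8 encodes JNK1, which phosphorylates Jun. It had 340.4 and 406 normalized counts in KO 1 and 2, against 305, 258 and 345 in WT 1, 2 and 3. WT 3 lay just above KO 1. Its log2 fold change of 0.30 (SE 0.18, 95% interval −0.15 to 0.76) was 0.17 without KO 2 and 0.43 without KO 1.

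Mapk14 encodes p38α, a kinase of the stress and cytokine response. It had 1535 and 1266 normalized counts in KO 1 and 2, against 1653, 1660.5 and 1472 in WT 1, 2 and 3. KO 1 lay between WT samples and KO 2 below all of them. Its log2 fold change of −0.19 (SE 0.14, 95% interval −0.53 to 0.16) was −0.33 without KO 1 and −0.06 without KO 2. Mapk14 has several RefSeq transcripts, and which of them the probe detects was not determined.

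Dusp6 encodes MKP-3, a cytoplasmic phosphatase with a preference for ERK. It had 4487 and 4457 normalized counts in KO 1 and 2, against 5078, 5458 and 6412 in WT 1, 2 and 3. Both KO samples lay below all WT samples and, with housekeeping scaling, close to each other. The coefficient of variation was 0.488% in KO and 12.2% in WT. That of KO rested on 2 samples and was below the counting error of 1.49% at the lowest count of Dusp6. It also rested on the scaling. Raw counts were 5128 and 4518 in KO 1 and 2, with housekeeping factors of 1.14 and 1.01 and positive control factors of 1.01 and 1.03. The means were 4472 ± 21.8 in KO (SD, n = 2) and 5649 ± 687 in WT (SD, n = 3). Its log2 fold change was −0.34 (SE 0.13, 95% interval −0.68 to 0.0055), with an unadjusted edgeR p of 0.0526 and an adjusted p of 0.710. It was −0.41 without WT 1, where the unadjusted p was 0.0325, and −0.24 without WT 3. With positive control scaling it was −0.19 and the groups overlapped.

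Dusp4 encodes MKP-2, a nuclear phosphatase of ERK and other MAP kinases. It had 3837 and 3978 normalized counts in KO 1 and 2, against 3718, 3795 and 5177 in WT 1, 2 and 3. WT 3 stood apart from the other 4 samples, which lay close together. The log2 fold change of −0.11 (SE 0.18, 95% interval −0.57 to 0.35) was 0.06 without WT 3 and 0.03 with positive control scaling, so that its sign rested on that sample and on the scaling.

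Counted over the 9 genes, 2 did not overlap between the groups and were higher in KO (Map3k1 and Mapk3), beside 8.98% of all tested probes, and 2 were lower (Map2k2 and Dusp6), beside 14.7%. This count depended on the scaling. Map3k1 lay higher in KO under all 5 scalings, Mapk3 under 3 of them, Map2k1 and Mapk8 under the 4 that do not use housekeeping probes, and Dusp6 lay lower under all but the positive control scaling. Map2k2 lay lower with housekeeping scaling only. The background moved as well: of all 401 tested probes, 36 lay higher and 59 lower with housekeeping scaling, 52 and 42 with TMM, 52 and 45 with DESeq2 size factors, 84 and 18 with positive controls, and 32 and 49 with total counts.

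**Figure D3:**
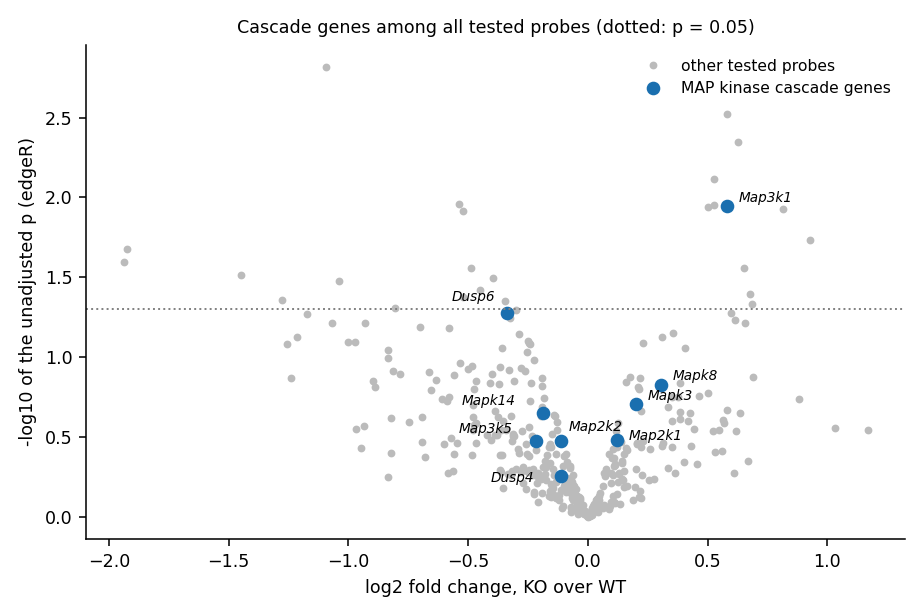
Log2 fold change of KO over WT (horizontal axis) and −log10 of the unadjusted edgeR p-value (vertical axis) for the 401 tested probes, with the 9 cascade genes in blue and the threshold of 0.05 as a dotted line. Map3k1 lies above the line, Dusp6 just below it, and the other 7 lie among the bulk of probes.

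The rest of the pathway was read from lists of genes. Of 34 further genes for kinases, adaptors and inhibitors of the cascade, 11 were on the panel and all were tested, with 6 higher and 5 lower means in KO and a median log2 fold change of 0.0001. None was called at the adjusted threshold, and 1 had an unadjusted edgeR p under 0.05. This was Traf2, which couples receptors of the tumor necrosis factor family to MAP3K enzymes. Traf2 had 319 and 295 normalized counts in KO 1 and 2, against 409, 429 and 485 in WT 1, 2 and 3. Its groups did not overlap, and its log2 fold change was −0.52 (SE 0.14, adjusted edgeR p of 0.487), opposite in sign to that of Map3k1.

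Tab1, an activator of the MAP3K Map3k7 (TAK1), had 239 and 217 normalized counts in KO, against 256, 334 and 288 in WT, and a log2 fold change of −0.36 (SE 0.17). Map3k7 itself, named after its values were seen, had a log2 fold change of 0.11 (SE 0.12). Mapkapk2, which encodes MK2, a kinase activated by p38, had 1419 and 1516 normalized counts in KO, against 1354, 1321 and 1360 in WT, and a log2 fold change of 0.13 (SE 0.10). Ecsit, an adaptor of Toll-like receptor signaling, had a log2 fold change of −0.15 (SE 0.13). Of Tab1, Mapkapk2 and Ecsit, only Ecsit overlapped between the groups. These genes and Traf2 were named for their small p, a choice that favors separation, and the other tested genes of the list all overlapped. Of all tested probes, 8.98% lay higher and 14.7% lower in KO without overlap.

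Transcription factors downstream of MAP kinases and genes that they induce included genes that differed several-fold between samples of the same genotype. Of 27 genes listed, 14 were on the panel and 13 were tested, with 4 higher and 9 lower means in KO, a median log2 fold change of −0.04, and 0 with an unadjusted edgeR p under 0.05. Myc had 3817 and 2981 normalized counts in KO 1 and 2, against 4184, 4168 and 3870 in WT 1, 2 and 3, a log2 fold change of −0.26 (SE 0.14). Elk1, an ETS factor phosphorylated by ERK, had raw counts of 17 to 25 in KO and 20 to 27 in WT, close to background, and a log2 fold change of −0.39 (SE 0.28). Egr3, another early growth response factor, had raw counts of 23 and 17 in KO 1 and 2, against 10, 16 and 11 in WT 1, 2 and 3, and was above background in 2 of the 5 samples. Its groups overlapped, with a log2 fold change of 0.50 (SE 0.31).

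Egr1, an immediate early gene of the ERK branch, had 84.9 and 181 normalized counts in KO 1 and 2, against 91.6, 199 and 470 in WT 1, 2 and 3, a log2 fold change of −0.94 (SE 0.76). Fos and Jun, the subunits of AP-1, are described because of their spread and were chosen after their values were seen. Fos had 1862 and 8790 normalized counts in KO 1 and 2, against 3764, 3208 and 9813 in WT 1, 2 and 3. Jun had 956 and 3002 in KO 1 and 2, against 1340, 1256 and 3801 in WT 1, 2 and 3. For both, KO 2 and WT 3 were high and the other 3 samples low, so that 1 sample of each genotype carried the high level.

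The highest sample exceeded the lowest 5.27-fold for Fos, 3.98-fold for Jun and 5.53-fold for Egr1, against 1.44-fold for Dusp6 and 1.39-fold for Dusp4. WT 3 was the highest sample for all 5 genes. KO 2, which resembled WT 3 in Fos and Jun, was close to KO 1 in Dusp4 and Dusp6 with housekeeping scaling. Before scaling, KO 1 and 2 had 4385 and 4033 counts of Dusp4 and 5128 and 4518 of Dusp6. With WT 3 left out, the log2 fold change of Dusp6 kept its sign and that of Dusp4 did not.

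**Figure D4:**
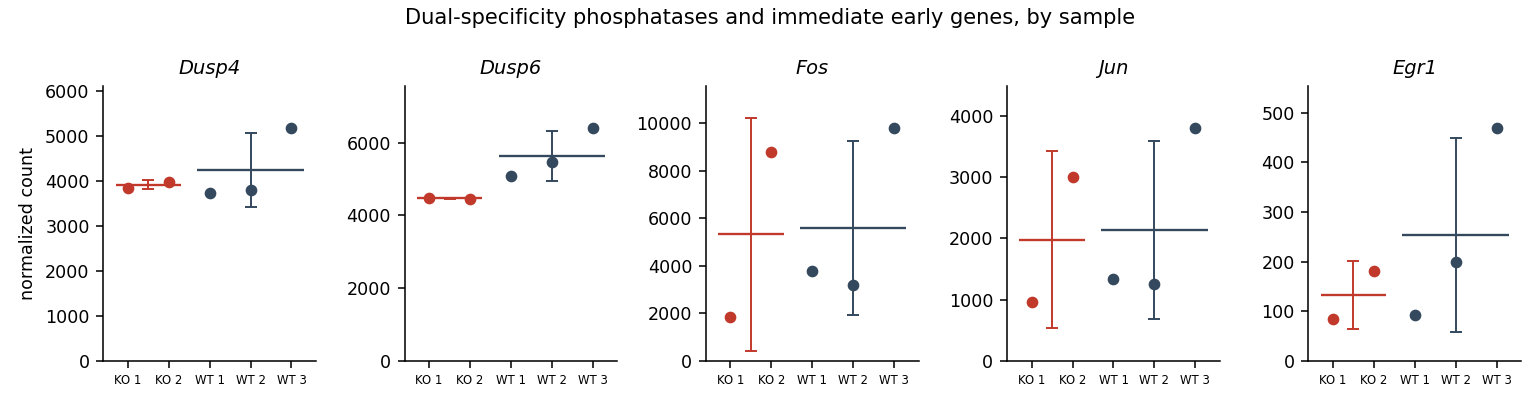
Normalized count (vertical axes, from 0) of Dusp4, Dusp6, Fos, Jun and Egr1 in every sample, KO in red and WT in dark blue, with the group mean as a line and the SD as a bar (n = 2 KO, n = 3 WT). Fos and Jun are high in KO 2 and WT 3, while Dusp6 is nearly equal in both KO samples with the housekeeping scaling used here.

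Of the 9 genes, Map3k1, Mapk8 and Map3k5 had the widest range over the samples, 1.77-fold, 1.57-fold and 1.50-fold from lowest to highest. The tested probes whose values over the 5 samples were most like those of Map3k1 were Mcam, a melanoma adhesion molecule, Cd3eap, a subunit of RNA polymerase I, and Vegfa, an angiogenic growth factor, with root mean square differences of 0.07, 0.09 and 0.13 on the log2 scale. For Mapk8 they were Vhl (0.09), Amica1 (0.12) and Cdk1 (0.12), and for Map3k5 they were Lyn (0.06), Col4a1 (0.08) and Mapk14 (0.09). Amica1 was close to background, with 20.1 and 23.7 normalized counts in KO and 18.5, 12.8 and 21.4 in WT. Mcam had 2684 and 2607 normalized counts in KO 1 and 2, against 1727, 1916 and 1668 in WT 1, 2 and 3. It was picked here for its likeness to Map3k1, so its separation between the groups adds no support to that of Map3k1. Mcam was also on the melanocyte marker list. It was called by DESeq2 (adjusted p of 0.0060) and not by edgeR (adjusted p of 0.487). The other melanoma marker, S100b, had 1724 and 1849 in KO 1 and 2, against 1979, 1987 and 1894 in WT 1, 2 and 3, lower in KO without overlap, and a log2 fold change of −0.13 (SE 0.10).

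Markers of other cells were summed over whole lists to set beside these results. The 10 endothelial markers on the panel, of which 7 never exceeded background, among them Pecam1, Cdh5 and Kdr, summed to 1210.3 to 1239 normalized counts in KO and 1324 to 1624 in WT, which is lower in KO as Dusp6 was. Most of this sum was Eng, with 930.2 ± 33.4 in KO and 1063 ± 128 in WT (SD, n = 2 and n = 3). The 8 fibroblast markers summed to 1599.9 to 1700.3 in KO and 796 to 1848 in WT, and the 17 myeloid markers to 390.3 to 394 in KO and 259 to 396 in WT. Fn1 was the largest part of the fibroblast sum, with 1274 and 1294 in KO 1 and 2, against 871, 1358 and 454 in WT 1, 2 and 3. Cd68 was the largest part of the myeloid sum. The 19 T and NK cell markers summed to 115 to 124 in KO and 96.3 to 144 in WT, and the 8 B cell markers to 40.3 to 51.3 in KO and 35.2 to 44.9 in WT. These 4 sums overlapped between the groups. Cd68, a macrophage marker and the only one of the myeloid list above background in all samples, did not: it had 243 and 246 normalized counts in KO 1 and 2, against 141, 210.1 and 128 in WT 1, 2 and 3. Cd68 had a log2 fold change of 0.61 (SE 0.25), higher in KO as Map3k1 was, with an unadjusted edgeR p of 0.0589 and an adjusted p of 0.710. The myeloid list did not move as 1: of its 5 tested markers, Cd68 among them, 3 had higher and 2 lower means in KO. Their median log2 fold change was 0.09. Eng, Fn1 and Cd68 were named after their values were seen. All 8 B cell markers, 14 of 19 T and NK cell markers and 10 of 17 myeloid markers stayed below background in every sample. The part of these cells in the differences of Map3k1 and Dusp6 was not tested.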

How the data were processed

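The authors deposited raw counts of 784 nCounter probes (750 endogenous, 20 housekeeping, 8 negative and 6 positive controls) from 100 ng of RNA per sample, with nothing subtracted or scaled. They also deposited a normalized signal, made in nSolver per the methods, which is the raw count times a factor per sample (0.842 and 0.959 for KO, 0.981, 1.04 and 0.996 for WT) with low values listed as 15. Samples were matched to columns by their code.

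Counts were divided by the relative geometric mean of the housekeeping probes (1.14 and 1.01 for KO, 0.971, 0.938 and 0.935 for WT). Background was set per sample at 2 SD over the average negative control, and the 401 endogenous probes that exceeded it in 2 samples or more were tested. KO was compared with WT by edgeR 4.0.16 (quasi-likelihood, genotype only) in R 4.3.3 with Benjamini-Hochberg adjustment over all tested probes and a threshold of 0.05, checked on simulated data. The study counts these groups in mice, while the labels name samples only and do not tie each one to an animal.

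The 9 genes and the lists were chosen with earlier results of these data known. From the lists of other pathway genes, target genes and receptors, up to 4 genes of smallest p were named, and for the 3 of the 9 genes with the widest range, the 3 probes of smallest root mean square difference. All 9 probes matched RefSeq by accession with the same symbol. Alternatives were other scalings and filters, background subtraction, DESeq2 1.42.0, limma 3.58.1 on log2 values with a pseudocount of 1, the methods' t-test on those values, limma on the deposited signal, a fit blocked by replicate number, and fits without each sample.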

Additional observations from a re-analysis of the deposited data

How the results depend on the processing

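Under the 17 alternatives, 0 of the 9 genes were called at the adjusted threshold, and the smallest adjusted p was 0.121, for Map3k1 with DESeq2. Map3k1, Map3k5, Map2k1, Mapk3, Mapk8, Mapk14 and Dusp6 kept the sign of their log2 fold change under all of these. With positive control scaling, Map2k2 had 0.0344, Dusp4 0.0294 and the median of the 9 genes 0.0344. The replicate block covered replicates 1 and 2 only and so left out WT 3. With it, Dusp4 and the median of the 9 genes had 0.0568, and Map3k1 had 0.51 with an unadjusted edgeR p of 0.0463. Leaving out WT 3 without a block gave nearly the same values, 0.0569 for Dusp4 and for the median and 0.51 for Map3k1. Deviations of samples with equal numbers correlated at 0.295 and 0.0002, which does not show that numbers pair the samples, and the block changed no call. With 1 sample left out, the log2 fold change of Dusp4 ranged from −0.199 to 0.0569, without WT 1 and WT 3, and the median of the 9 genes from −0.094 to 0.0569. The count of the 9 genes at an unadjusted p under 0.05 ranged from 0, without KO 1, to 2, without WT 1, where Dusp6 joined Map3k1. Over all tested probes that count was 25 by default, 39 when unfiltered, 10 without KO 2 and 50 without WT 1, the lowest and highest values. Higher and lower calls were 11 and 14 by default, and 24 and 4 with positive control scaling. A fit with a lone KO sample takes its spread from WT. The causes were not tested. With these samples, the 1.50-fold difference of Map3k1 did not pass the adjusted threshold.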

Other observations

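Receptors act upstream of MAP kinase cascades. Of 26 receptors and ligands listed, 13 were on the panel and 7 were above background in all samples. The 8 that were tested had 5 higher and 3 lower means in KO and a median log2 fold change of 0.07, against −0.07 for all tested probes. None had an unadjusted edgeR p under 0.05. Axl, a receptor tyrosine kinase, had 133 and 277 normalized counts in KO 1 and 2, against 85.5, 239 and 102 in WT 1, 2 and 3. KO 2 and WT 2 were high and the groups overlapped, with a log2 fold change of 0.53 (SE 0.56). Igf1r, the receptor of insulin-like growth factor 1, had 366 and 307 in KO 1 and 2, against 342, 332 and 235 in WT 1, 2 and 3, a log2 fold change of 0.15 (SE 0.22). Pdgfrb, a receptor of platelet-derived growth factor, had a log2 fold change of 0.13 (SE 0.20), and Tgfbr1, a receptor of TGF-β, of −0.07 (SE 0.12). Kdr, Il1r1 and Tnfrsf1b stayed below background in all samples.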
